A study of Arabidopsis thaliana with 6 samples.

Results

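The transcript levels described here are those of wild-type roots of Arabidopsis thaliana, the accession Col-0, measured on 2 of the 6 Affymetrix ATH1 arrays of a study of the root hair regulator RSL4. They are the arrays titled Col-0. The remaining arrays, of the rsl4-1 mutant and of 35S::RSL4 plants, are not compared with them. Per the labels, roots were taken at growth stage 3.20. Seedlings stood on upright plates with MS salts, 1% sucrose and 0.5% phytagel, adjusted to pH 5.7, at 25 °C in constant light. Col-0 is the control genotype by its labels, with no transgene or mutation listed. Cold treatment of the seeds is stated both as 4 and as 2 days. Separate growth of the 2 samples is not stated, so the spread between the 2 arrays may be technical.

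The root is a gradient of dividing, elongating and mature cells, arranged as epidermis, cortex and endodermis around the vascular tissue, with a root cap at the tip. Some epidermal cells form root hairs, which take up water and ions. Root cells hold plastids that are mostly not photosynthetic, and roots are known for making many defence proteins and secondary compounds. Whole roots mix all these cells, so fewer cells of a type and less RNA per cell cannot be told apart.

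The values are MAS5 signals in scaled units, with replicate 1 given before replicate 2 in every pair below. A percentile is the rank of a signal within its own array among the 22746 probe sets that are not array controls. Probe sets bind their transcripts with unequal strength, so the order of signals between genes is an order of signals and not of transcript amounts. No test was run, since there is only 1 genotype and 2 arrays, and each level is read against the difference between the arrays.

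Both arrays had a similar spread of signals. The median signal was 40.7 and 41.1, the 90th percentile 300.9 and 301.2, and the highest signal 6967 and 6015. The brightest 10% of probe sets held 59.9% and 58.9% of all signal, and the brightest 1% held 18.3% and 17.1%. At the dim end, 2740 and 3161 probe sets had a signal under 1. The control probe sets for the 3' over the 5' end of a transcript gave ratios of 1.65 and 1.65 for GAPDH, 2.56 and 2.75 for ubiquitin and 25.1 and 22.9 for actin. The 3' signal was thus the higher for all 3 control transcripts, by far the most for actin, to about the same degree on both arrays. How far such a difference between transcript ends bears on the levels of other probe sets was not tested.

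The arrays agreed closely for bright probe sets and poorly for dim ones. Across the 22746 probe sets, which share both arrays and are not independent, Pearson's r of the log2 signals was 0.955 and Spearman's rho 0.985. In the brightest 10% the median difference between the arrays was 1.08-fold, 90% of probe sets differed by at most 1.23-fold, and 0 of 2275 differed by over 2-fold. In decile 5 the median difference was 1.15-fold. In decile 2, counted from the dimmest, it was 3.38-fold, and 1569 of 2275 probe sets differed by over 2-fold. Of the 3453 probe sets that differed by over 2-fold, 1186, 1569 and 618 lay in the 3 dimmest deciles. In the dimmest 10% 63.2% of probe sets were higher on replicate 1, against 57.8% in the brightest 10%.

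**Figure D1:**
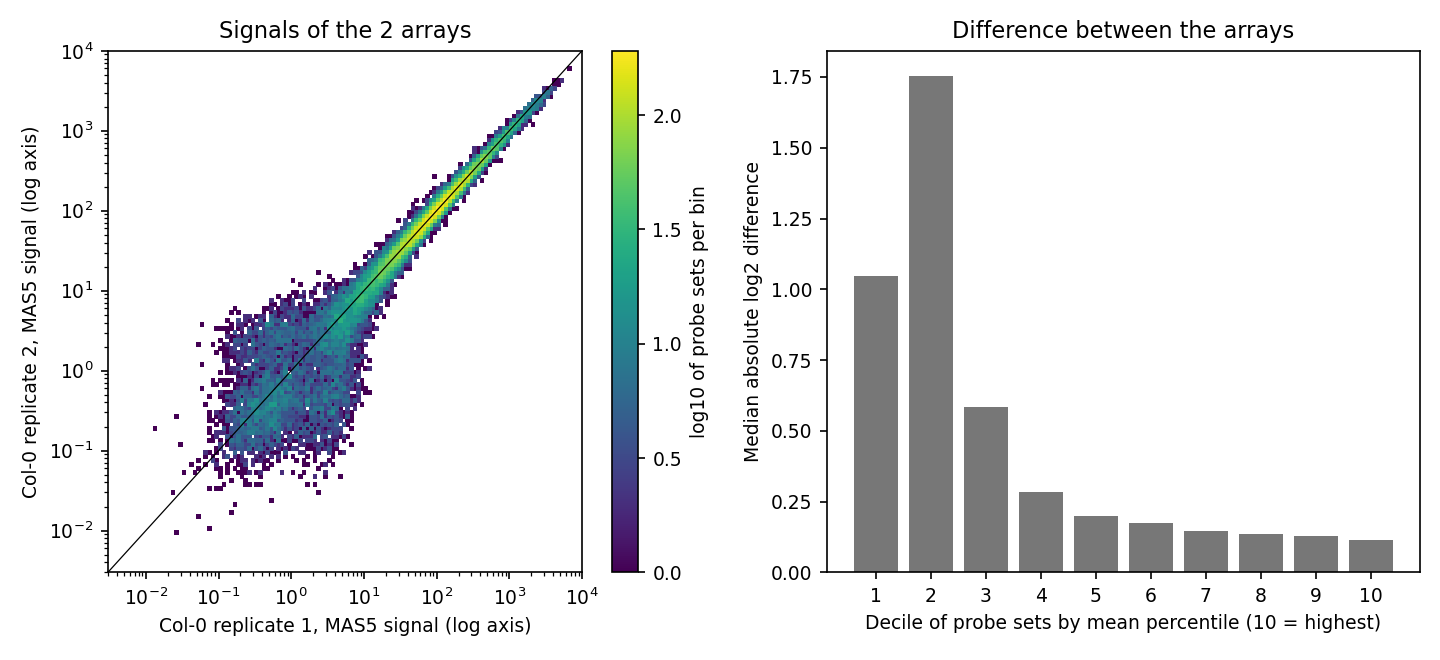
Left, the MAS5 signal of every probe set on Col-0 replicate 1 (x axis) and replicate 2 (y axis), both on log axes, with colour for the number of probe sets per bin and a line of equality. Right, the median absolute log2 difference between the 2 arrays in each decile of probe sets by mean percentile, which was 1.05 in decile 1, 1.75 in decile 2 and 0.12 in decile 10, the brightest.

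The levels were divided into 3 bands, each of which a probe set had to reach on both arrays. The top 10% held 2140 probe sets (9.41% of all), 94.1% of those that replicate 1 placed there. The middle 20%, from the 40th to the 60th percentile, held 3873 (17% of all), a shared part of 85.1%. The bottom 10% held 1344 (5.91% of all), a shared part of only 59.1%. The edge of the top 10% lay at a signal of 300.9 and 301.2, that of the bottom 10% at 0.725 and 0.513. A place in the top 10% was thus steady between arrays, while a place in the bottom 10% held less often.

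Names reach only a share of these probe sets. Of all probe sets, 13513 have 1 gene in the platform annotation and 503 have several, and the 8730 without an entry stay unnamed here. Of the probe sets with 1 gene, 13436 matched RefSeq genes of assembly TAIR10.1 at 13286 loci. Matched probe sets made up 43.1% of the top 10%, 59.4% of the middle 20% and 73.4% of the bottom 10%. The brightest probe sets are thus the least often matched to a locus. Of the matched probe sets, 20.7% had a gene name in the top 10%, 11.7% in the middle 20% and 8.62% in the bottom 10%. Of the loci, 1671 had a gene name and 11615 only a locus number. Each locus is given below by its brightest probe set. By that measure 922 loci (6.94%) were in the top 10%, 2275 (17.1%) in the middle 20% and 969 (7.29%) in the bottom 10%. For loci with a name these shares were 11.4%, 16% and 4.79%, and for loci with only a number they were 6.29%, 17.3% and 7.65%. Of all loci 5731 (43.1%) lay above the array median on both arrays and 7201 (54.2%) below it, and of the named loci 924 (55.3%) and 709 (42.4%). The median percentile was 44.5 over all loci and 57.8 over the named loci. These shares and medians are the background for the families below, and a value near them sets no family apart. The lists below were chosen with earlier results of these data known.

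Among one-gene probe sets, MT1C had the highest signal on both arrays, at 5288 and 4156, rank 3 of all probe sets on each. MT1C encodes a metallothionein, a small cysteine-rich protein that binds metal ions. PYK10 came next, at 4474 and 3744. Its signal on replicate 1 lay within the 2 signals of MT1C, but on each array MT1C was the higher. The same order on only 2 arrays leaves the order of these neighbours of limited certainty. PYK10 is a beta-glucosidase stored in ER bodies, the spindle-shaped compartments of root and seedling cells that are tied to defence. Of the 30 highest one-gene probe sets, all for protein-coding genes, 20 had only a locus number, with signals from 1988 to 3522. In 26 of the 30 the signal was higher on replicate 1.

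Genes for ER bodies and their partner lectins had signals near the top. The jacalin-related lectins JAL34, JAL33 and JAL22, which bind sugars and associate with PYK10 in broken cells, had signals of 3168 and 3049, of 2724 and 2565, and of 1694 and 1654. NAI2, which is needed to form ER bodies, had 1900 and 1766. NAI1, the transcription factor that switches on NAI2 and PYK10, was at 116 and 110. JAL23 was low, at 6.85 and 4.29, although its locus lies close to that of JAL22 by number. Of the 7 measured members of this list 5 were in the top 10%, against 11.4% of named loci, and none in the bottom 10%. The list's median percentile was 99.3, beside 44.5 over all 13286 loci and 57.8 over the named loci. The list was chosen with earlier results of these data known, so its count and median show no pattern for such genes. PYK10 was the only one of 21 measured beta-glucosidases in the top 10%. The next were BGLU15 at 225 and 240 and BGLU16 at 200 and 244, and the family's median percentile was 26.0.

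Other defence and stress proteins were among the brightest signals. LCR69 and LCR68, small cysteine-rich defensin-type peptides, had 2131 and 2018, and 2024 and 1743. OSM34, an osmotin-like protein of the thaumatin family, had 1822 and 1673. Of 13 cysteine-rich peptide genes only LCR69 and LCR68 were in the top 10%, and the median percentile was 18.5. PDF1.2, a defensin known from jasmonate and ethylene responses, had signals of 6.19 and 3.01. The peptide genes therefore held a few very bright members and many dim ones.

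Some of the dehydrins, hydrophilic proteins that protect cells from drying and cold, were in the top 10%. HIRD11 had 3365 and 2911, COR47 had 2196 and 1950, and LTI30 had 1327 and 1254. Of 10 loci with dehydrin, LEA or COR names, 5 were in the top 10%, and LEA26 and LEA27 were the other two. COR15A and COR15B, cold-induced proteins of the plastid, had signals of 2.94 and 0.667, and of 8.30 and 5.91. The group was therefore split, with 5 loci above and 5 below the median on both arrays.

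Signals of enzymes that act on peroxides, oxidised proteins or toxic compounds differed widely. PRXR1, a class III peroxidase, had 3001 and 2774. PRX72, a peroxidase known for lignin formation, had 306 and 320, and PER36, known from the seed coat, had 0.303 and 0.207. Of 7 measured class III peroxidases 2 were in the top 10%. Their median percentile was 62.6, near the 57.8 over the named loci. MSRB5 and MSRB9, which repair oxidised methionine, had 1481 and 1435, and 1199 and 1080. MSRB3 and MSRB6 of the same family had 81.9 and 109, and 29.5 and 37.95. GRXC2, a glutaredoxin, had 1013 and 939. Of 13 glutathione transferases, enzymes that conjugate glutathione to toxic compounds, GSTU26 at 653 and 589 and GSTU27 at 344 and 373 were in the top 10%, and the family's median percentile was 77.9.

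Genes of primary metabolism ranged from the top to the bottom of the array. The glycolytic enzymes GAPC2 and TPI had 2918 and 2645, and 2269 and 1919. PDC2, a pyruvate decarboxylase of ethanol fermentation, had 275 and 276. All 5 measured members of the sugar use and fermentation list lay above the median on both arrays, with a median percentile of 89.0, and the lowest was AT4G17260 at 129 and 130. cICDH, the cytosolic isocitrate dehydrogenase, had 3041 and 2694. Of 12 measured genes of the citrate cycle and ATP-citrate lyase 8 (66.7%) were in the top 10% by their brightest probe set. Their median percentile was 92.3, and 3 lay below the median on both arrays. ATP-citrate lyase makes acetyl-CoA in the cytosol, and its subunit genes ACLA-1, ACLA-3 and ACLA-2 had 977 and 833, 406 and 449, and 328 and 342. The succinate dehydrogenase genes were unequal, with SDH1-1 at 926 and 696 and SDH1-2 at 17.3 and 16.4. SDH2-1 had 697 and 689 on its brighter probe set, but 0.880 and 0.214 on the other. SDH1-1 differed between the arrays by more than the 1.23-fold that held 90% of the brightest 10%. IDH-III and IDH-IV, isocitrate dehydrogenase subunit genes, were low, at 0.335 and 0.432, and at 1.01 and 0.527.

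Aldehyde dehydrogenases, which oxidise aldehydes to acids, had the highest family median after the jacalin-related lectins among the families with at least 4 measured loci, with a percentile of 95.1. Of 8 measured, 5 (62.5%) were in the top 10% and none in the bottom 10%. ALDH2C4, which forms ferulic and sinapic acid, had 1060 and 1130. ALDH10A8 had 861 and 809, and ALDH7B4 had 835 and 713. The lowest member was ALDH11A3, at 37.3 and 23.8. Further enzymes of the top 10% follow, picked for their bright signals. HCT, an acyltransferase of lignin synthesis, had 896 and 784, and UGT72E2, which glucosylates lignin precursors, had 772 and 738. SAMDC, which supplies the aminopropyl groups of polyamines, had 2109 and 2067. PMEAMT, a methyltransferase of the choline pathway, had 1134 and 1305.

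Mitochondrial proteins were picked in the same way. CYTC-1, a cytochrome c, had 1671 and 1776, and MPPBETA, part of the peptidase that trims proteins imported into mitochondria, had 1468 and 1505. UBC28, a ubiquitin-conjugating enzyme, had 2634 and 2256. Of 12 measured ubiquitin-conjugating enzymes 4 (33.3%) were in the top 10%, with UBC30 at 611 and 723 and UBC22 at 504 and 501 after UBC28, and the median percentile was 83.9. Of 12 measured deubiquitinating UBP proteases none was in the top 10% or the bottom 10%, 5 were in the middle 20% and 9 lay above the median on both arrays. Their median percentile was 59.8 and their signals ran from 34.1 to 204. APA1, an aspartic protease, had 1888 and 1657. All 9 measured ATG8 genes, whose proteins coat autophagosomes, lay above the median on both arrays, from ATG8G at 105 and 118 to ATG8F at 886 and 796. PGY1, a protein of the large ribosomal subunit, had 1246 and 1289.

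The 7 genes of sulfur metabolism given here were picked for their place in the top 10%, and how many other sulfur genes were measured was not counted. APS4, an ATP sulfurylase that activates sulfate, had 767 and 714, and SIR, the sulfite reductase that follows in the pathway, had 505 and 487.5. STR18, a sulfurtransferase, had 660 and 620. CBL, which makes homocysteine on the way to methionine, had 454 and 498, and MMT, which methylates methionine, had 352 and 354. GR1, a glutathione reductase, had 593 and 653. BCAT4, which starts the lengthening of methionine for glucosinolates, had 588 and 622. The largest difference between the arrays among these 7 genes was 1.102-fold, for GR1.

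Regulators and trafficking genes of the top 10% were picked in the same way. BZIP53, a transcription factor known for low-energy and seed responses, had 625 and 592. bHLH115 and ILR3, related factors known for iron responses, had 547 and 524, and 438 and 417. SIM, an inhibitor of cyclin-dependent kinases that promotes endoreduplication, had 341 and 456. CUL4, the scaffold of a ubiquitin ligase, had 406 and 498. RBP45B, an RNA-binding protein, had 888 and 912, and EIF4A-2, a translation initiation helicase, had 842 and 629.5. In trafficking, AP2M of the clathrin adaptor had 433 and 396, the endosomal GTPase ARA6 had 362 and 344, and KEU, needed to fuse vesicles at the dividing wall, had 313 and 308. GAMMA-VPE, a processing enzyme of the vacuole, had 685 and 743, and TMT1, which loads sugars into the vacuole, had 761 and 739.

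**Figure D2:**
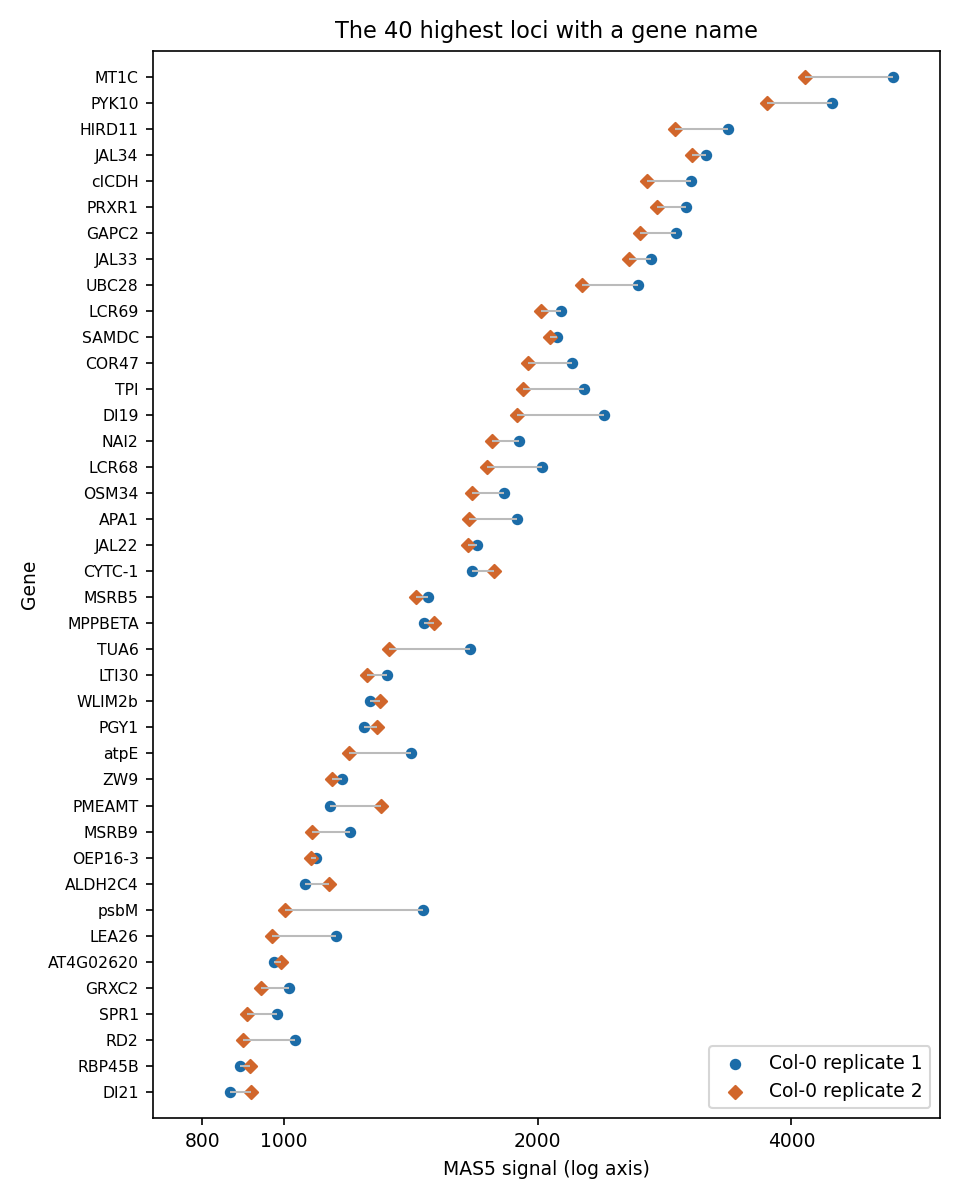
MAS5 signals (x axis, log scale) of the 40 highest loci with a gene name, ordered by the lower of their 2 percentiles, with circles for Col-0 replicate 1 and diamonds for Col-0 replicate 2. MT1C and PYK10 lie highest, and replicate 1 is the higher in 31 of the 40.

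Genes of the cytoskeleton ranged from bright tubulins to a dim actin. TUA6, an alpha-tubulin, had 1664 and 1334, and the beta-tubulins TUB6 and TUB9 had 656 and 588, and 519 and 570. Of 7 measured tubulins 4 (57.1%) were in the top 10% and all lay above the median on both arrays, with TUA1, a tubulin known from pollen, the lowest at 55.2 and 65.4. The V-ATPase, the proton pump of the vacuole and endosomes, had 5 measured subunit genes, all above the median on both arrays, with AT4G02620, listed as VHA-F, at 974 and 991. SPR1, a microtubule-associated protein needed for straight growth, had 982 and 905. The LIM proteins, which bundle actin filaments, had WLIM2b at 1266 and 1301 and WLIM1 at 589 and 581. ACT11 had 84.9 and 72.5, and ACT12, an actin of pollen, had 0.478 and 0.405.

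Proteins that shape the wall included COB, which orients cellulose deposition, at 534 and 667, SKU5 at 447 and 482, and the receptor kinase FER, which senses wall integrity and peptide signals, at 590 and 545. RALF-like peptides are ligands of FER and its relatives. RALFL32 and RALFL27 were in the top 10% at 639 and 625, and at 407 and 411, while RALFL26 and RALFL28 had signals under 1 on both arrays. Expansins loosen the wall. Of 19 measured expansin and expansin-like loci 3 (15.8%) were in the top 10%, namely EXPB3 at 632 and 601, EXPA4 at 559 and 551 and EXPA15 at 365 and 404. The lowest were EXPA24 at 0.180 and 0.354 and EXLB2 at 0.481 and 0.185. Xyloglucan endotransglucosylases, which cut and rejoin xyloglucan, had XTH19 at 375 and 390, XTH18 at 206 and 200 and XTH29 at 2.17 and 0.428. Of 15 measured glycosyl hydrolase 9 genes, the cellulase family, 5 lay above the 80th percentile and the other 10 below the median. GH9C2 at 414 and 382 and GH9B7 at 345 and 367 were the highest, and GH9A4 at 0.171 and 0.362 the lowest.

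The tissue label was checked with marker genes, of which few are named here. Of 354 genes on 20 lists, 48 had a one-gene probe set, and 6 lists had no measured member. Of 30 listed root hair growth genes 4 were measured. SCN1, which restricts hair initiation to single sites, had 366 and 380. EXPA18 and EXPA7, expansins of root hair cells, had 277 and 244, and 99.4 and 114, and XTH26 had 40.6 and 35.4. The median percentile of these 4 was 79.7, and 1 of them (25%) was in the top 10%. RSL4 itself was not matched to a probe set.

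For other root tissues only 1 or 2 listed markers were measured, and for the root cap 0 of 4. GSO1, a receptor kinase for the endodermal barrier, had 130 and 122. LHW, a transcription factor of vascular initial cells, had 152 and 147. The mitotic kinases AUR1 and AUR2 had 84.0 and 87.3, and 59.7 and 58.6. In epidermal patterning JKD had 49.2 and 49.7, and TRY, a small MYB protein that inhibits trichome fate, had 4.11 and 3.59. EIN3, the main transcription factor of ethylene responses, had 337 and 346, in the top 10%. Of the iron acquisition genes, F6'H1, which makes coumarins, had 375 and 436 and BHLH101 had 10.6 and 6.48. These single genes do not decide the tissue label. AUR2, with a mean percentile of 57.7, lay at the median of the named loci, 57.8, and TRY, with 21.5, lay well below it.

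Photosynthesis genes encoded in the nucleus were measured at intermediate levels. Of 45 listed, 9 had a one-gene probe set, none was in the top 10% or the bottom 10%, and the median percentile was 62.2. LHCB4.1, an antenna protein of photosystem II, had 219 and 188, and RCA, the activase of Rubisco, had 168 and 136. The photosystem proteins PSBW, PSAE-1, PSAN and PSBY ranged from 60.2 to 93.9. LHCB4.2 had 43.1 and 41.0. The Calvin cycle enzymes PRK and SBPASE were lowest, at 29.9 and 20.1, and at 23.6 and 17.3. All but PSAE-1 and PSBW were higher on replicate 1, by up to 1.49-fold for PRK. Whether these signals came from root plastids or from shoot tissue was not tested.

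Genes of the plastid genome covered nearly the whole range. Of 69 measured, 8 (11.6%) were in the top 10% and 3 in the bottom 10%, with a median percentile of 39.5. The brightest were atpE, a subunit of ATP synthase, at 1413 and 1194, psbM, a small photosystem II protein, at 1461 and 1002, and atpB at 780 and 875. The large Rubisco subunit rbcL was at the middle, at 39.4 and 34.4, and psbA, a core protein of photosystem II, was at 10.1 and 8.12. The genes atpI, ndhG and ndhJ were in the bottom 10%, with atpI at 0.156 and 0.199. The signals of ATP synthase subunit genes of this genome thus ran from the top to the bottom of the array. The 13 nuclear loci with OTP or CRR names, which act in RNA processing in organelles, all lay below the median on both arrays, with OTP81 highest at 15.6 and 18.2.

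Genes often used as references had signals well above the median. Beside GAPC2, PEX4, also known as UBC21, had 408 and 387. MON1 had 161 and 179, and AT4G34270 had 149 and 140. These 4 measured genes, of 16 listed, had mean percentiles of 78.2 to 99.8, and the arrays differed on them by at most 1.11-fold.

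**Figure D3:**
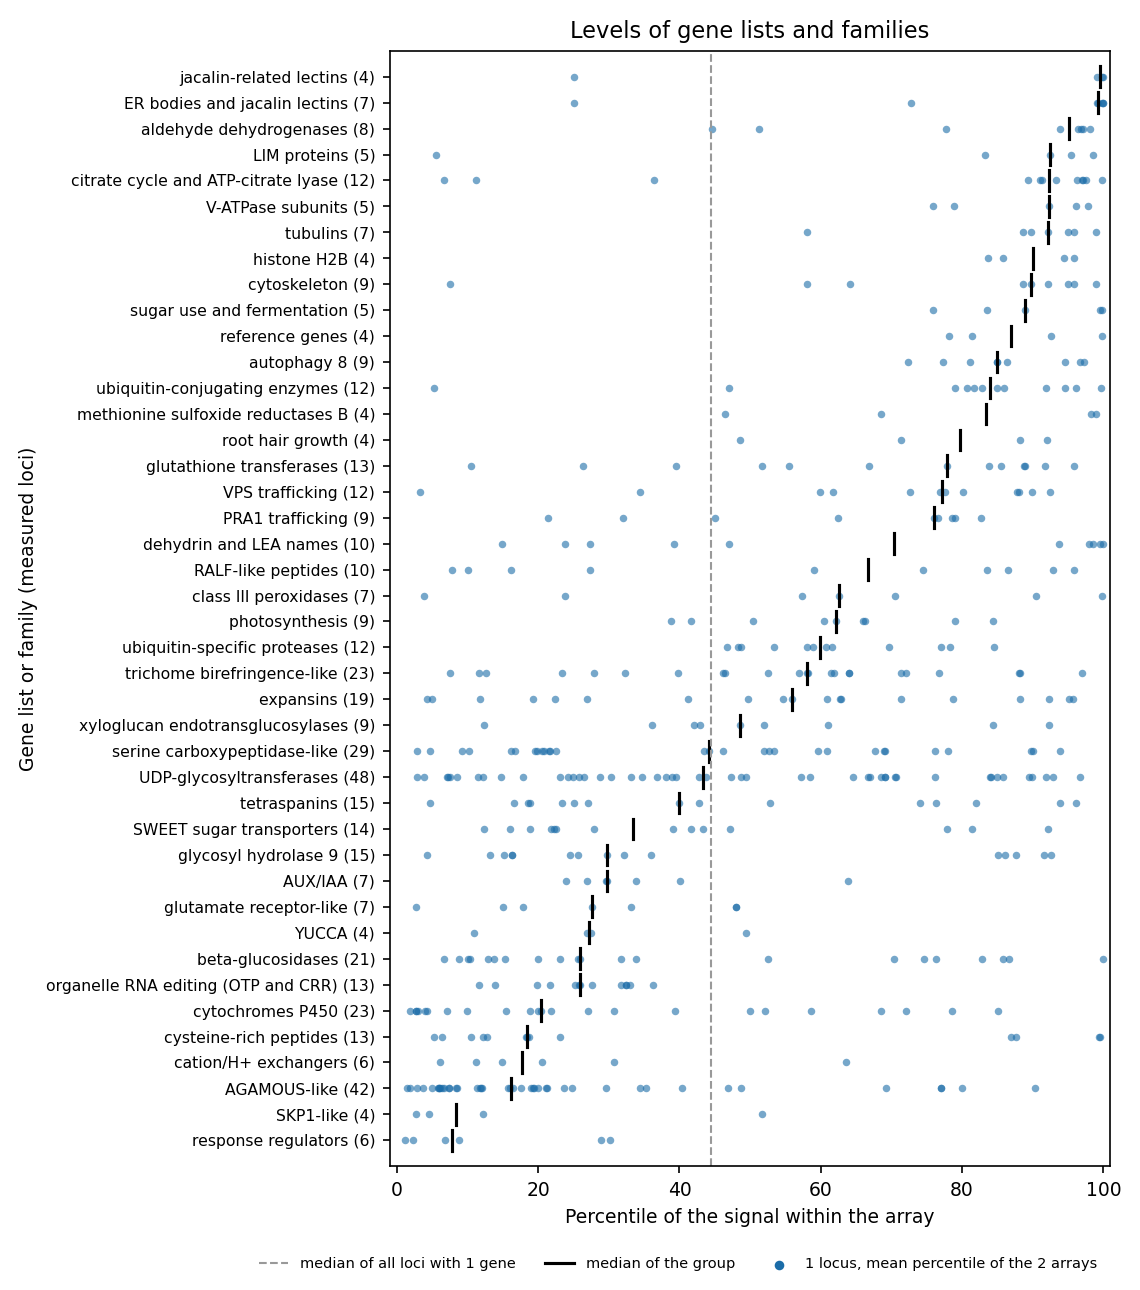
Percentile of the signal within the array (x axis) for every measured locus (points, mean of the 2 Col-0 arrays) of the gene lists and families with at least 4 measured loci, ordered by their medians (black bars). The dashed line marks the median of all loci with 1 gene, 44.5, and the medians run from 7.82 for response regulators to 99.5 for jacalin-related lectins.

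The middle of the array held genes of mixed functions at signals near 40. The 10 one-gene probe sets nearest to the 50th percentile on both arrays, all protein-coding, ranged from 39.97 to 41.9, and 8 of them had only a locus number. The named ones were CYP59, a nuclear cyclophilin, at 40.2 and 40.8, and LPA2, which helps to assemble photosystem II, at 41.6 and 41.9. Close to the middle were also YUC6, an enzyme of auxin synthesis, at 38.9 and 40.6, and CLE44, a peptide that keeps vascular stem cells dividing, at 43.8 and 45.6. The calcium channels GLR3.3 and GLR3.6, known for wound signals between organs, had 36.5 and 37.0, and 37.0 and 36.8. SPT, a transcription factor known for fruit and germination, had 37.5 and 41.6. A signal near 40 was steady, since deciles 5 and 6 differed between arrays by a median of 1.15-fold and 1.13-fold.

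Several enzyme and regulator families were spread over the whole range around that middle. The UDP-glycosyltransferases, which attach sugars to small molecules and hormones, had 48 measured loci. Of these 3 (6.25%) were in the top 10%, against 6.94% of all loci and 11.4% of named loci. A further 6 were in the middle 20% and 5 in the bottom 10%. After UGT72E2, the highest were UGT74B1, an enzyme of glucosinolate synthesis, at 373 and 451, and UGT71C1 at 336 and 388. UGT73C1 was lowest, at 0.209 and 0.210. UGT76B1, which glucosylates defence signals, was uneven, at 153 and 266. The serine carboxypeptidase-like genes had a median percentile of 44.2, with SCPL49 at 451 and 468 the only one of 29 in the top 10%. The trichome birefringence-like genes, which acetylate wall polymers, had TBL36 at 735 and 832 as the only one of 23 in the top 10%. Of 14 SWEET sugar transporters, SWEET17, a fructose transporter of the vacuole known from roots, was highest at 344 and 414, and the median percentile was 33.4. Tetraspanins had TET8 at 675 and 645 and TET3 at 445 and 483 in the top 10%, against TET16 at 0.228 and 0.343.

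Of 9 measured PRA1 genes, which act in membrane trafficking, none was in the top 10% or the bottom 10%, 6 lay above the median on both arrays and 3 below it. The highest was PRA1.B1 at 173 and 192, and the lowest had a mean percentile of 21.4. Of 12 VPS genes, subunits of sorting complexes, 10 were above the median on both arrays and 2 below it, with VPS2.1 at 389 and 384 and VPS24.2 at 0.283 and 0.181. The histone H2B genes HTB4, HTB11, HTB2 and HTB1 ranged from 194 to 625, with HTB4 at 625 and 620.

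Of 7 measured AUX/IAA genes, repressors that auxin removes, none was in the bottom 10%. On both arrays 6 lay below the median, against 54.2% of all loci and 42.4% of named loci. IAA18 was the exception, at 73.4 and 81.5, and IAA29 had 8.32 and 2.59. GH3.17, which conjugates auxin to glutamate, was bright at 619 and 622, while GH3.3 had 10.4 and 11.5. Of 4 measured YUC genes only YUC6 reached the middle 20%, and YUC4 had 0.758 and 0.639.

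At the low end, signals had little precision and few names. The 10 lowest one-gene probe sets had signals from 0.00996 to 0.101, all with only a locus number, and 6 of them were annotated as pseudogenes. The lowest was the pseudogene AT3G42090, at 0.0271 and 0.00996. The lowest named loci were bZIP31 at 0.09 and 0.07, PIPK11 at 0.18 and 0.12 and ECS1 at 0.19 and 0.13. Signals of this size differ between the arrays by a median of 2.06-fold, so no order among them holds.

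Pseudogenes made up a large share of the bottom and none of the top. Of 986 matched probe sets in the bottom 10% 327 (33.2%) were pseudogenes, against 989 of 13436 (7.36%) overall and 0 of 922 in the top 10%. Conversely, 314 of 923 probe sets for pseudogenes without known transcripts (34.0%) were in the bottom 10%, 13 of 66 for transcribed pseudogenes (19.7%), and 658 of 12443 for protein-coding genes (5.29%). A few pseudogenes had clear signals, with 8 above the median on both arrays. The brightest was AT1G35612, at 148 and 132.

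MADS-box genes of the AGAMOUS-like group were the largest low family. Of 42 measured loci 12 were in the bottom 10%, 36 were below the median on both arrays, and the median percentile was 16.2. The bottom members, from AGL78 at 0.224 and 0.0684 to AGL92 at 0.493 and 0.390, are mostly type I MADS-box genes, a class known from embryo sac and endosperm. The bright members were AGL26 at 314 and 306, AGL16 at 158 and 157, AGL21, which promotes lateral roots, at 153 and 123, and AGL42, known from root cells, at 134 and 139. AT1G30260 was counted too, since RefSeq lists it under the synonym AGL79 beside AT3G30260, and had 98.1 and 97.1.

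Cytokinin response regulators had the lowest median of the families, with a percentile of 7.82 and all 6 measured members below the median on both arrays. ARR15 and RR16, regulators that damp cytokinin responses, had 10.6 and 8.42, and 8.61 and 7.90. RR18, RR19 and RR23 were in the bottom 10%, with RR23 at 0.208 and 0.0689. Of 23 measured cytochromes P450, mostly of the CYP71B group, none was in the top 10% and 6 were in the bottom 10%. CYP71B6 at 208 and 214 was the highest and CYP71B16 at 0.117 and 0.198 the lowest. Of the 7 glutamate receptor-like genes all lay below the median on both arrays, against 54.2% of all loci and 42.4% of named loci. Among these 7 genes 1 was in the bottom 10%, GLR2.9 at 0.291 and 0.131.

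Genes known from organs that a root lacks were looked up by name, after their values had been seen. Of 22 such loci 7 were in the bottom 10%, against 7.29% of all loci and 4.79% of named loci. On both arrays 21 lay below the median, against 54.2% of all loci and 42.4% of named loci. Since the loci were chosen with their values known, these counts show no pattern for such genes. TUA1, also known from pollen, was not among the 22 and lay above the median on both arrays. The stomatal regulators SPCH and MUTE had 0.776 and 0.260, and 0.541 and 0.371, and the stomata-promoting peptide STOMAGEN had 0.648 and 0.284. The petal regulator RBE had 0.338 and 0.418, the stem cell peptide CLV3 had 0.466 and 1.53, and the leaf polarity gene YAB3 had 0.551 and 2.92. The egg cell peptides EC1.2 and EC1.5 had 0.198 and 2.37, and 0.690 and 2.38. Among the 22 the exception was PLIM2b, an actin-binding LIM protein known from pollen, at 203 and 178. Its relative PLIM2a had 0.219 and 0.439. The NGA genes, leaf and style regulators, ran from NGA1 at 0.888 and 2.93 to NGA2 at 18.5 and 17.2.

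Levels were also unevenly placed along the chromosomes. The annotated loci were taken in chromosome order in 154 windows of 250. The median share of measured loci in the bottom 10% was 5.06%, but 14 windows exceeded 20%, and on each chromosome they lay near one another, within at most 5 neighbouring windows. The peak was 33.3% of 39 measured loci on chromosome 1 in the window from AT1G37095, 41.0% of 61 on chromosome 2 from AT2G10330, 37.0% of 54 on chromosome 3 from AT3G33131, 35% of 20 on chromosome 4 from AT4G06523 and 26.9% of 26 on chromosome 5 from AT5G32495. In these windows 68.5% to 84.6% of the measured loci were pseudogenes. Among the other 5 to 17 loci per window, 16.7% to 40% were in the bottom 10%. The share was 5.29% over all probe sets for protein-coding genes. The windows were picked for their share in the bottom 10%, to which these few loci count. Their higher shares therefore show no pattern of their own. The share in the top 10% had a median of 6.87%, was 0 in 7 windows and reached 15.96% on chromosome 5 in the window from AT5G19380. Whole chromosomes differed less. The bottom share was 10.7% on chromosome 2 and 5.26% to 7.86% on the other four.

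**Figure D4:**
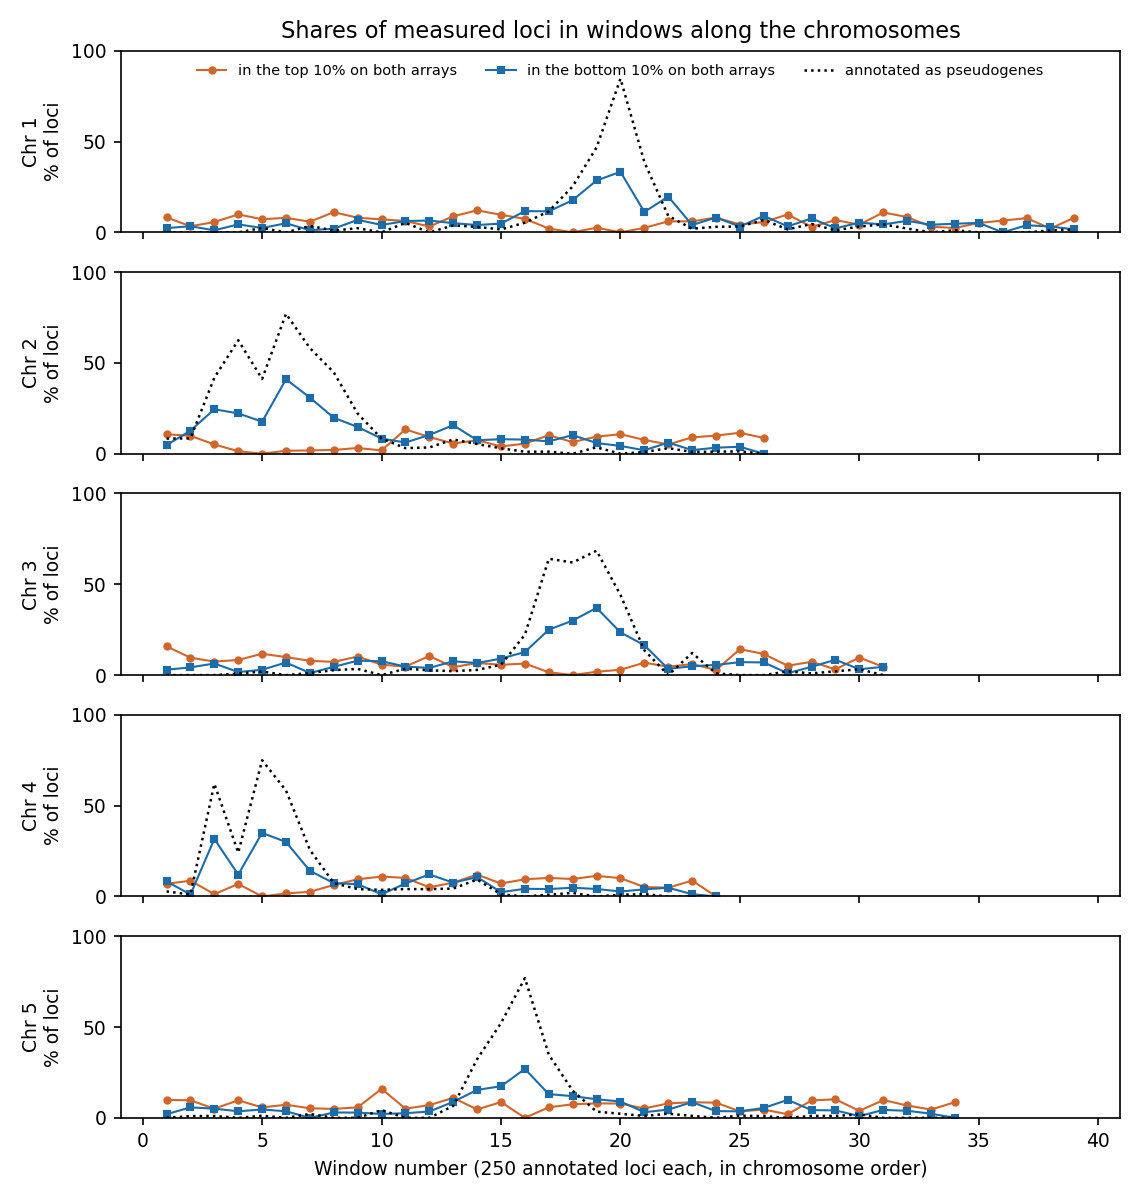
Share of measured loci (y axis, percent) in the top 10% on both Col-0 arrays, in the bottom 10% on both arrays, and annotated as pseudogenes, in windows of 250 annotated loci in chromosome order (x axis, window number), with 1 panel per chromosome. On each chromosome the bottom and pseudogene shares peak in the same window, at 41.0% and 77.0% on chromosome 2 and at 33.3% and 84.6% on chromosome 1.

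How far a signal depends on the probe set was read from 144 loci with more than 1 one-gene probe set. The brightest and the dimmest probe set of a locus differed by a median of 20.5 percentile points (quartiles 11.7 and 42.2), while the arrays differed by a median of 2.05 points on the brightest and 3.69 points on the dimmest of these probe sets. In 23 loci the gap exceeded 50 points. The 2 probe sets of SDH2-1, a succinate dehydrogenase subunit, had 697 and 689, and 0.880 and 0.214. Those of AGL26 had 314 and 306, and 0.300 and 0.195, so its place as the brightest MADS-box gene rests on 1 of its probe sets. For DER1 they were 105 and 115, and 0.359 and 0.218. A low signal of 1 probe set thus did not mean a low signal for the locus, and the choice of probe set moved the percentile more, by its median, than the choice of array.

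**Figure D5:**
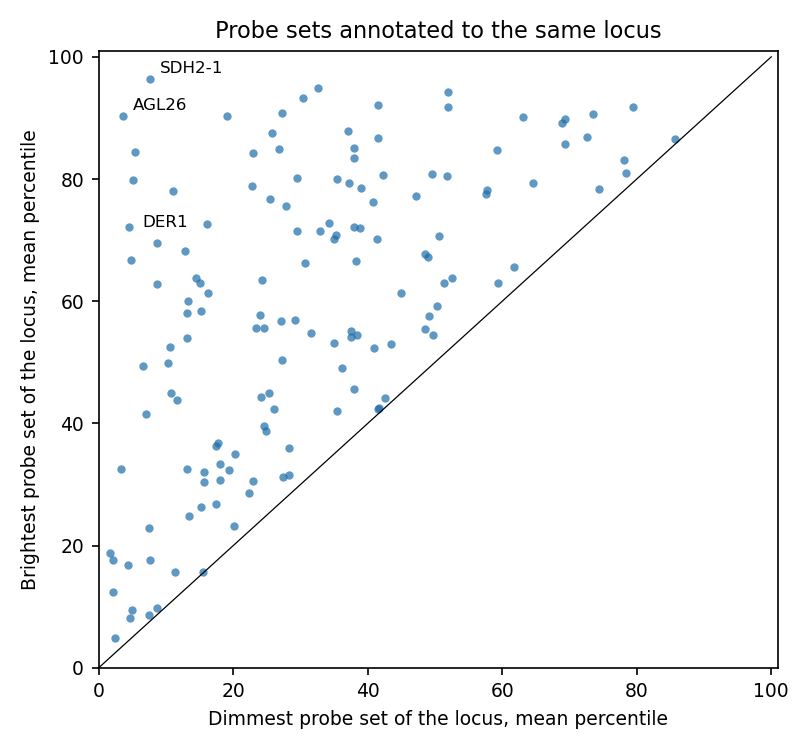
Mean percentile of the dimmest (x axis) and the brightest (y axis) probe set for each of the 144 loci with more than 1 one-gene probe set, with a line of equality. The points lie far above the line in many loci, by up to 88.8 percentile points for SDH2-1.

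Among bright probe sets a few still differed between the arrays. Of one-gene probe sets in the top 10% of at least 1 array, the largest log2 difference was 0.81, for AT1G74460 at 710 and 406. AT3G08610 had 2029 and 1255, AT1G67480 had 372 and 590, and AT5G58110 had 330 and 513. The named loci among the 10 largest were CUTA, at 194 and 302, and the plastid protease gene clpP, at 323 and 211. The direction was mixed, with 6 of the 10 higher on replicate 1. For each of these the place in the top 10% or the level within it is uncertain by about the size of that difference.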

How the data were processed

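Of the 6 arrays with 22810 probe sets each, only the 2 titled Col-0 were used. Per the labels' protocols, total root RNA was purified with a Qiagen kit and biotin was built in during in vitro transcription (3' IVT). The deposited values are intensities, linear MAS5 signals. Per the submitters' processing notes the authors used GCOS and MAS5, whose versions are not given in the sources. The mean of the signals, leaving out 2% at each end, was 100.008 on both arrays, so the authors' scaling was kept and nothing was normalized again. MAS5 treats each array alone, and with 2 arrays the precision is limited. Why dim values differed more between the arrays was not tested.

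The 64 AFFX controls were left out and 22746 probe sets were ranked within each array (Python 3.11.15, pandas 2.3.3). Top 10%, middle 20% and bottom 10% mean above the 90th, above the 40th to the 60th, and up to the 10th percentile on both arrays. Names come from the platform table and RefSeq (TAIR10.1). Its order of genes sets the windows, and its coordinates are not printed because the values name no build. No sequence is printed. Named by rule are the 30 highest, 10 middle and 10 lowest one-gene probe sets, the 10 that differ most between the arrays, the highest and lowest members of the lists and up to 4 more, and up to 3 of each family. Further genes were chosen after their values were seen. The members and lists were chosen with earlier results of these data known. Only the call of the top 10% was tested on simulated data. The simulated noise was equal at all levels, unlike on these arrays, where dim probe sets differed more. Alternatives were another ranking, only one-gene probe sets, no probe sets that can bind several transcripts, narrower bands, quantile normalization, an offset, other probe set rules and leaving out each array.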

Additional observations from a re-analysis of the deposited data

How the results depend on the processing

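Of 48 alternative values over 12 results, 30 were classed as the same and 18 as moved. These classes do not follow the size of the change. The middle 20% with 4549 probe sets instead of 3873 was classed as the same. ER bodies with a median percentile of 99.4 instead of 99.3 were classed as moved. The bottom 10%, with 1344 probe sets on both arrays, became 2274 when ranked by the mean of both signals and 2274 without either replicate, a count that any single ranking fixes, as it fixes 2275 for the top and 4549 for the middle. It became 730 when only one-gene probe sets were ranked and 475 in narrower bands (5%, 10% and 5%). The top 10%, with 2140, became 1258 and 1074 under the last 2 of these, and the middle 20%, with 3873, became 2324 and 1592. Fewer ranked probe sets and narrower bands give fewer by construction. An offset of the 20th percentile lowered the median log2 difference of the dimmest 10% from 1.05 to 0.43. Ranked among one-gene probe sets only, median percentiles were 83.7 for root hair growth, 67.7 for photosynthesis, 92.5 for the cytoskeleton, 90.1 for reference genes, 91.9 for sugar use and 99.6 for ER bodies. Without probe sets that can bind several transcripts, sugar use had 89.1 and ER bodies 99.4. Taking the mean of a locus's probe sets, or the dimmest, an alternative chosen after seeing the data, gave no value, since 0 measured members of these lists have a second probe set. The families, among which AGL26 has a second probe set, were not part of these 12 results. No paired analysis was possible because only 1 genotype was described and no test was run. Sequence features of the bands were not analysed here. In the 2 dimmest deciles the arrays differed by medians of 2.06-fold and 3.38-fold, which limits every low level.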
